A study of Mus musculus with 21 samples.

Results

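The mouse genome carries 8 beta tubulin isotype genes, *Tubb1*, *Tubb2a*, *Tubb2b*, *Tubb3*, *Tubb4a*, *Tubb4b*, *Tubb5* and *Tubb6*, and their transcripts were described in fully-grown mouse oocytes with graded amounts of *Kif11*. The members were taken by gene symbol from a table of 54232 genes counted over all exons in 21 libraries, and all 8 were found there. *Kif11* encodes the kinesin-5 motor that slides antiparallel spindle microtubules apart. The study asked how much of it oocytes need, using a floxed allele (fl), a constitutive deletion allele (del) and 3 Cre drivers.

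Each library held poly(A) RNA of 3 oocytes at the germinal vesicle stage, from hormone-primed C57BL/6-background females of 3 to 4 months, and each mouse gave 1 or 2 libraries. The groups without Cre were wt/fl (4 libraries), with 1 wild-type and 1 intact floxed allele, and fl/del (4 libraries), which kept the floxed allele alone. Spo11-Cre, a transgene active from early meiotic prophase, was present in wt/fl Spo11-Cre (5 libraries), which kept the wild-type allele alone, and in fl/del Spo11-Cre (4 libraries), which kept neither. The oocyte-specific drivers Gdf9-Cre and Zp3-Cre, which act later than Spo11-Cre, were each used on fl/fl (2 libraries each). All 6 groups carried at least 1 floxed allele, so no group was wild type at both alleles.

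Tubulin is a dimer of an alpha and a beta subunit, and these dimers polymerise head to tail into the microtubules of which the spindle is built. Beta tubulin isotypes share a nearly invariant globular body that binds GTP and differ most in an acidic carboxy-terminal tail, which faces outwards, contacts motors and other microtubule-associated proteins, and receives polyglutamylation. Cells also adjust tubulin transcript levels to free tubulin, through recognition of the amino-terminal residues of the nascent chain, and a fully-grown oocyte stores the transcripts that it will use when the meiotic spindle forms.

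The reading frames of the isotypes were compared first, because near-identical copies limit what short reads can assign. The last 30 coding bases are shown for the 5 isotypes expressed here other than *Tubb6*, since this is where the isotypes differ most. Capitals mark the in-frame glutamate codons, the bases are written 5′ to 3′ on the coding strand, and they were taken from GENCODE M21 transcripts on GRCm38.

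Tubb4b: GAGGAGGAGgctGAGGAGGAGgtggcttag

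Tubb2a: GAGGAGGAGGAGggtGAAgatGAGgcttga

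Tubb2b: GAGGAGGAAGAGggcGAGgatGAGgcttga

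Tubb5: ttcggaGAGGAGgcaGAAGAGGAGgcctaa

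Tubb3: GAGGAAtcgGAAgcccaggggcccaagtga

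These runs lie at chr2:25222308-25222337 (*Tubb4b*, minus strand), chr13:34074468-34074497 (*Tubb2a*, minus strand), chr13:34127471-34127500 (*Tubb2b*, minus strand), chr17:35834982-35835011 (*Tubb5*, minus strand) and chr8:123421653-123421682 (*Tubb3*, plus strand), each within coding sequence. The last 30 bases held 6 glutamate codons in *Tubb4b*, *Tubb2a* and *Tubb2b*, 5 in *Tubb5* and 3 in *Tubb3*, whose frame ended in a stretch without any. Over the last 20 codons before the stop the 8 genes were more alike, with 8 to 10 glutamate codons each. At the other end, all 8 frames opened with codons for the motif that is read on the nascent chain. The first 30 coding bases are shown for the 3 isotypes whose levels are compared most closely here, with the 4 motif codons in capitals.

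Tubb2a: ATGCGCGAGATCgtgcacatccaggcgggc

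Tubb2b: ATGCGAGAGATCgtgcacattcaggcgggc

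Tubb3: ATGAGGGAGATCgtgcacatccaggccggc

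*Tubb2a* (ENSMUSG00000058672, chr13:34074274-34078007) and *Tubb2b* (ENSMUSG00000045136, chr13:34126748-34130466), both protein coding on the minus strand, were the most alike of the 28 pairs, with 96.5% identical coding bases. The next pair, *Tubb3* and *Tubb6*, had 85.9%. Cut into windows of 150 bases, the length of a read, 27.9% of the windows of the *Tubb2a* transcript and 20.1% of those of *Tubb2b* occurred exactly in another gene, above all in each other. For *Tubb4b* the share was 16.8%, all of it in the processed pseudogene *Tubb4b-ps1* on chromosome 5. No such window was found for *Tubb1*, *Tubb3*, *Tubb4a*, *Tubb5* or *Tubb6*. Reads with several equally good positions were left out by the authors, so the counts of *Tubb2a*, *Tubb2b* and *Tubb4b* rest on the rest of each transcript and are less certain than those of the other isotypes.

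Library totals ran from 7205010 to 18454549 counts, and those of the fl/fl libraries from 7801470 to 10759741. The 13 oocyte markers summed to 24075 to 33262 CPM (counts scaled to a library total of 1000000), the 15 granulosa and cumulus markers to 71.8 to 126 CPM, and the platelet and erythroid markers to at most 0.895 and 0.36 CPM. All-exon *Kif11* was 23.8 to 43.2 CPM in wt/fl, 17.6 to 30.5 in wt/fl Spo11-Cre, 7.49 to 14.6 in fl/del, 1.08 to 2.70 in fl/del Spo11-Cre and 4.27 to 7.95 in fl/fl with either driver. The fl/fl libraries are a separate set outside the 17 that the study's methods describe, so driver, genotype and library set cannot be told apart in them. Some libraries of a group may come from the same mouse, and p-values then measure only the spread between libraries. Most of the 17 libraries share the start of their name with another of their group, and the labels do not say whether this names a mouse. With such libraries summed, an exact permutation test against wt/fl could give no p under 0.1 for wt/fl Spo11-Cre or 0.0667 for fl/fl. In pooled oocytes, fewer contributing cells and less RNA per cell cannot be told apart.

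*Tubb4b*, *Tubb6* and *Tubb2a* made up most of the beta tubulin RNA in every library. Compared per kilobase of exon, they held together 88.3 to 91.1% of the sum over the 8 genes in the 17 Spo11-Cre background libraries and 84.8 to 87.6% in the 4 fl/fl libraries. Mean shares over the 21 libraries were 33.2% for *Tubb4b*, the isotype known as beta-4B, 29.2% for *Tubb6*, a divergent isotype of many tissues, and 26.9% for *Tubb2a*. *Tubb3*, best known from neurons, held 6.63%. *Tubb5*, the class of most dividing cells, held 3.59%. *Tubb2b*, prominent in the developing brain, held 0.539%.

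The upper part of this order was not fixed. *Tubb4b* had the highest level per kilobase in 19 of 21 libraries, *Tubb6* in the other 2, and *Tubb2a* stood above *Tubb6* in 8. Below them *Tubb3* was above *Tubb5* in all 21 libraries, and *Tubb5* above *Tubb2b*. The shares use exon lengths that the authors' counts and TPM imply, which gave 1757 bp for *Tubb6*. GENCODE M21, in which a retained-intron transcript lengthens *Tubb6* to 2437 bp, would place *Tubb2a* above *Tubb6* in 20 libraries, with a mean share of 29.3% against 22.9%. The order of these neighbours and the size of share differences therefore depended on the length used, whereas comparisons of the CPM of 1 gene between groups did not.

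**Figure D1:**
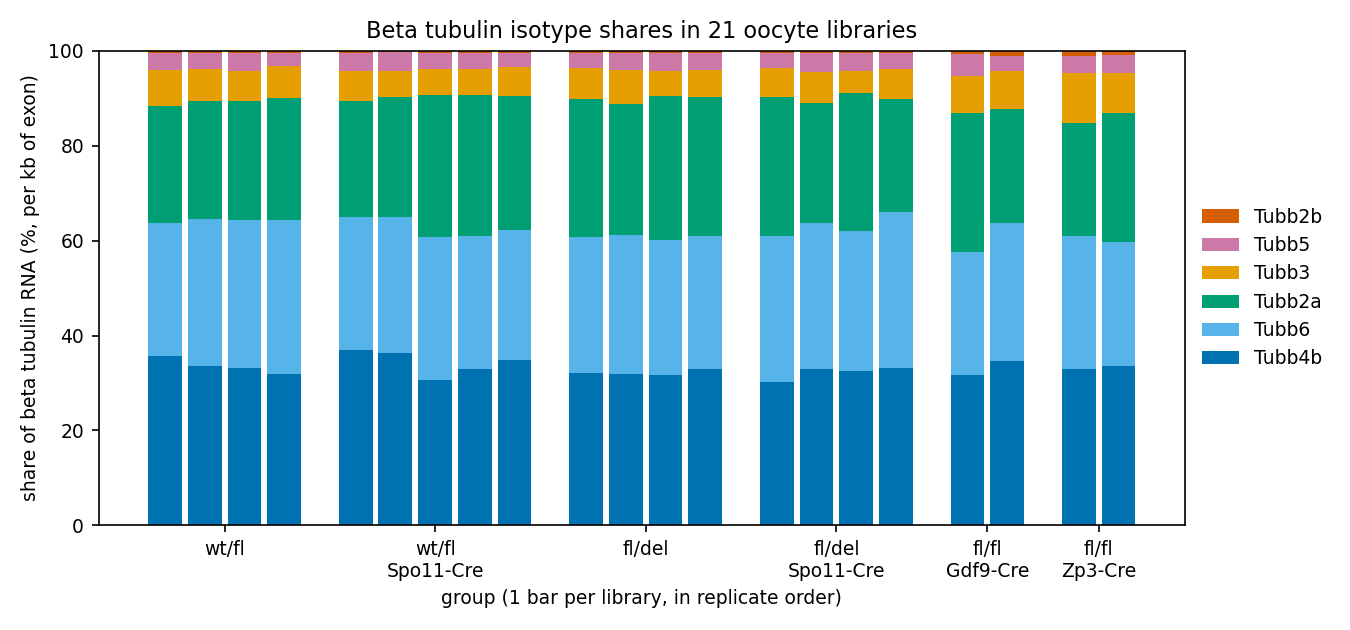
Share of each beta tubulin isotype (y axis, percent of the sum of counts per kilobase of exon over the 8 genes) in each of the 21 libraries (1 bar per library, grouped by genotype and Cre driver on the x axis). *Tubb4b*, *Tubb6* and *Tubb2a* fill 84.8 to 91.1% of every bar, and the thin *Tubb2b* segment at the top is widest in the fl/fl libraries.

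The remaining members were at or near the detection limit. *Tubb1*, the isotype of platelets and megakaryocytes, had 0 counts in all 21 libraries. If counts are independent, this allows up to 0.163 CPM in the deepest library and 0.416 CPM in the shallowest (3 counts of the total, for counting error only). If both mates of a read pair were counted, which is not stated, the limits are higher. *Tubb4a*, an isotype of neurons and oligodendrocytes, had 0 counts in 13 libraries and at most 10 in any, with 32 counts over the series. Its highest level, 1.09 CPM, was in fl/fl Gdf9-Cre replicate 2. *Tubb4a* stayed in the tests across genes, where its log2 fold changes had standard errors of 1.83 or more, and *Tubb1* did not pass the filter.

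Of the 6 expressed isotypes, *Tubb4b* varied least in CPM over the 17 Spo11-Cre background libraries, with a coefficient of variation of 8.18%, against 9.01% for *Tubb5* and 14.98% for *Tubb3*. In wt/fl it was 1141, 1214, 1025 and 1246 CPM in replicates 1 to 4, a mean of 1157 ± 98.2 (SD, n = 4). The other group means lay between 1066 and 1091 CPM, and the libraries of all groups overlapped. As a share of beta tubulin RNA it was 33.6% ± 1.59 (SD, n = 4) in wt/fl. The share in other groups was 0.79 percentage points higher in wt/fl Spo11-Cre, and differed by -1.46 in fl/del, -1.42 in fl/del Spo11-Cre and -0.39 in fl/fl. None of these 4 differences passed a two-sided exact permutation test (Benjamini-Hochberg adjusted p = 0.686, 0.457, 0.514 and 0.686). With wt/fl replicate 1 or fl/fl Gdf9-Cre replicate 1 left out, the fl/fl difference became 0.32 and 0.13 points.

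Summed over the 8 genes, beta tubulin RNA reached 3134 ± 327 CPM (SD, n = 4) in wt/fl. The wt/fl Spo11-Cre libraries had the lowest mean, 2816 ± 90.9 CPM (SD, n = 5). The means were 3016 ± 178 CPM for fl/del, 3036 ± 299 CPM for fl/del Spo11-Cre and 2964 ± 251 CPM for fl/fl (SD, n = 4 for each). Each group's range overlapped that of wt/fl. The alpha tubulin genes, per kilobase, summed to 0.384 to 0.538 times the beta tubulin genes over the 21 libraries. Both ends of that range were wt/fl libraries, so wt/fl overlapped with every group. The fl/del libraries, at 0.405 to 0.433, lay below all libraries of both Spo11-Cre groups and of fl/fl, but barely. Replicate 1 of fl/del was at 0.4335 and replicate 1 of fl/del Spo11-Cre at 0.4344. The ratio also rests on the exon lengths used, and this separation was not tested.

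The first comparison asked what Spo11-Cre and loss of the floxed allele did in wt/fl oocytes, and *Tubb3* was the isotype called lower. *Tubb3* was 216, 218, 171 and 232 CPM in wt/fl replicates 1 to 4. In wt/fl Spo11-Cre it was 183, 147.5, 153, 159.5 and 163 CPM in replicates 1 to 5. All wt/fl Spo11-Cre libraries but replicate 1 lay below every wt/fl library, and that library was above only wt/fl replicate 3.

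The means were 161 ± 13.5 (SD, n = 5) against 209 ± 26.3 CPM (SD, n = 4), a log2 fold change of -0.35 with a standard error of 0.10 (edgeR quasi-likelihood test, Benjamini-Hochberg adjusted p = 0.0390). A two-sided exact permutation test of the CPM gave p = 0.0238. *Tubb3* was the 1 member called of 7 tested, where 2.19% of all 22383 genes were called and 1.33% were called lower. The call was lost under 3 other settings (adjusted p = 0.0525 to 0.0875) and without any 1 of 7 libraries, wt/fl replicates 1, 2 and 4 and wt/fl Spo11-Cre replicates 2 to 5 (adjusted p = 0.0533 to 0.174, log2 fold change -0.37 to -0.30). The summed granulosa and cumulus markers overlapped, at 84.1 to 126 CPM in wt/fl and 71.8 to 102 CPM in wt/fl Spo11-Cre, and their part in the result was not tested. Most of this sum was *Cyp19a1* (means of 69.1 and 60.5 CPM) and *Nr5a2* (29.8 and 24.8 CPM). Also higher in wt/fl were *Inha* (0.743 and 0.0217 CPM), *Fshr* (1.29 and 0.562) and *Cyp11a1* (0.909 and 0.285). So were *Has2* (0.441 and 0), *Fst* (0.413 and 0), *Hsd17b1* (0.168 and 0) and *Amh* (0.0391 and 0). Higher in wt/fl Spo11-Cre were *Kitl* (3.58 and 4.37 CPM), *Inhba* (0 and 0.369) and *Gja1* (0.0350 and 0.0441). *Foxl2*, *Inhbb* and *Amhr2* were at 0 in both groups.

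*Tubb6* gave values of the same sign in this comparison. It was 755, 942, 811 and 1071 CPM in wt/fl and 688 to 789 CPM in wt/fl Spo11-Cre, where the median was 747. Only wt/fl replicate 1 lay within the range of the Cre libraries. The exact permutation test of the CPM gave p = 0.0238, the same value as for *Tubb3*. The log2 fold change of -0.25 (SE 0.08) did not pass in edgeR (adjusted p = 0.104) and passed in DESeq2 (adjusted p = 0.0493). Without wt/fl replicate 1 it passed in edgeR (log2 fold change -0.32, adjusted p = 0.0339), and without wt/fl replicate 4 it was -0.14 (adjusted p = 0.483). The other expressed members had log2 fold changes of -0.13 (*Tubb5*), -0.09 (*Tubb4b*), 0.00 (*Tubb2a*) and 0.01 (*Tubb2b*).

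**Figure D2:**
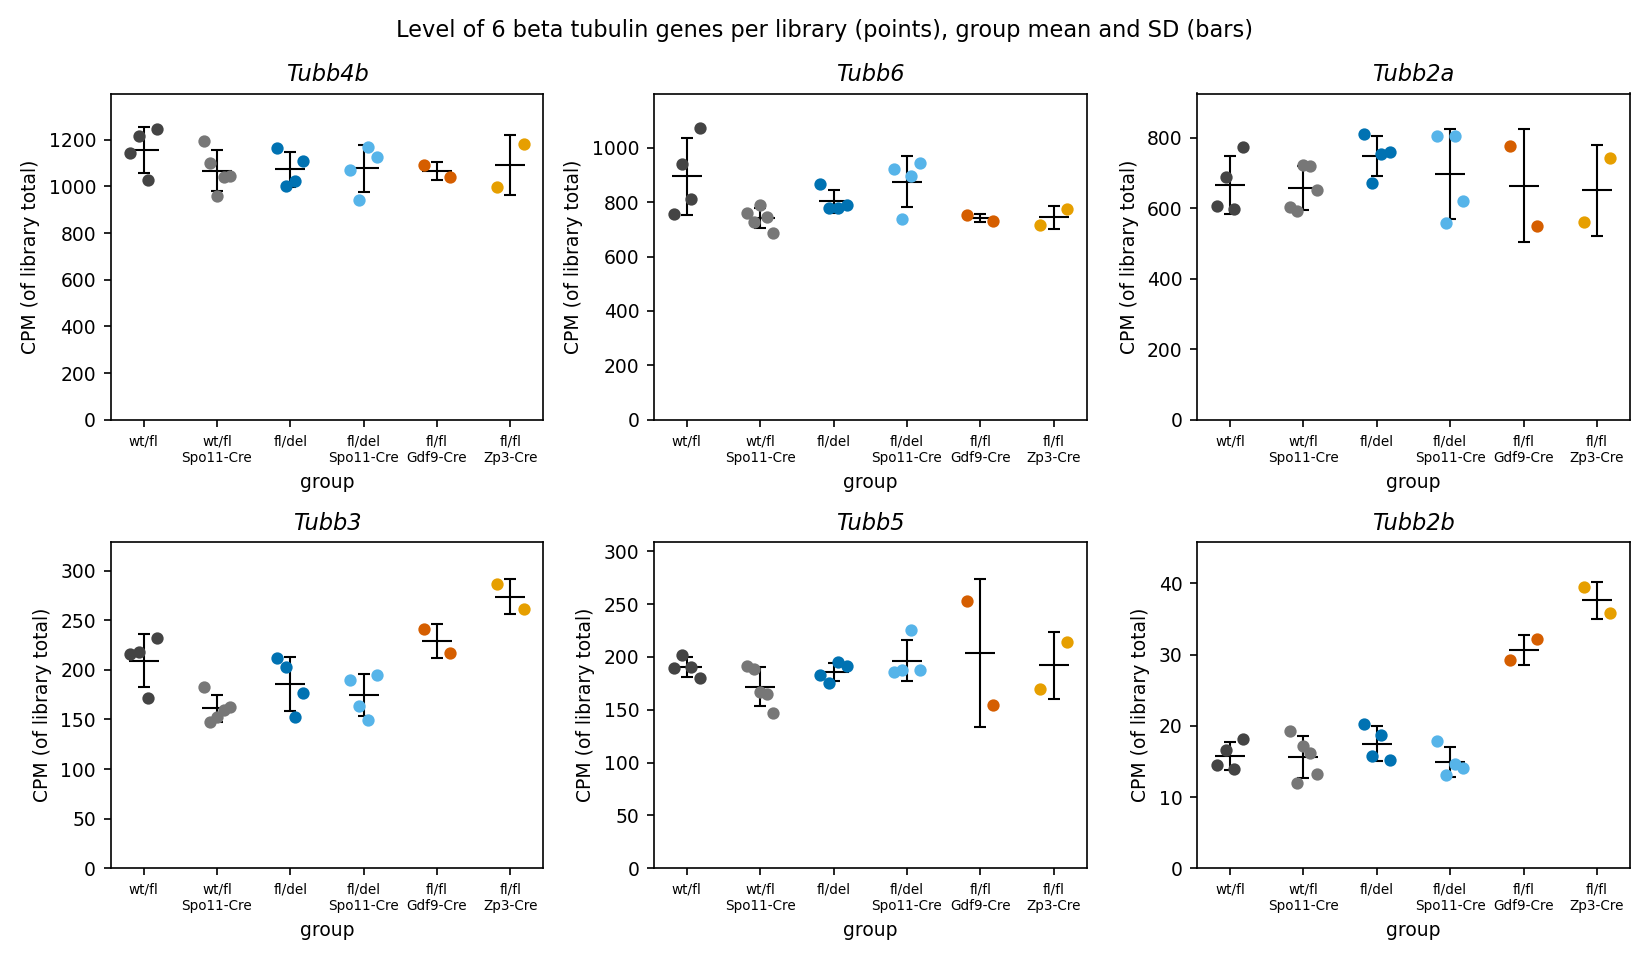
Level of the 6 expressed isotypes (y axes, CPM of the library total, from 0) in the 6 groups (x axes), with 1 point per library, the group mean as a horizontal line and the SD as an error bar. *Tubb2b* is at 29.2 to 39.5 CPM in the fl/fl libraries and 12.0 to 20.3 CPM elsewhere, whereas *Tubb4b* overlaps in all groups.

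Loss of 1 *Kif11* allele by constitutive deletion came without a called change of any isotype. In fl/del against wt/fl, 0 of 7 members were called by edgeR or by DESeq2 and 0 had an unadjusted p under 0.05, beside 0.0223% of all genes called. *Tubb2a* had the largest positive value among the 6 expressed members, a log2 fold change of 0.18 (SE 0.10, 95% interval -0.01 to 0.37), with 810, 672, 755 and 760.0 CPM in fl/del and 605, 690, 599 and 774 CPM in wt/fl. *Tubb3* had the most negative one, -0.15 (SE 0.10, 95% interval -0.36 to 0.05). The libraries of both groups overlapped for each of these genes.

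The knockout oocytes without any functional *Kif11* allele gave the same count. In fl/del Spo11-Cre against wt/fl, 0 of 7 members were called by either tool, beside 0.197% of all genes, and 1 had an unadjusted p under 0.05. This was *Tubb3*, at 189.7, 164, 149.5 and 194 CPM in fl/del Spo11-Cre, with a log2 fold change of -0.27 (SE 0.10, adjusted p = 0.375). The remaining expressed isotypes had log2 fold changes from -0.11 (*Tubb4b*, 95% interval -0.27 to 0.05) to 0.06 (*Tubb2a*, 95% interval -0.13 to 0.25). For *Tubb4b*, *Tubb2a*, *Tubb5* and *Tubb6* the 95% intervals together spanned 0.832- to 1.19-fold, and for *Tubb2b*, the gene with fewest counts of the 6, the interval ran from 0.719- to 1.24-fold.

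The other pairs of the Spo11-Cre background were alike in this respect. No member was called by edgeR or DESeq2 in fl/del against wt/fl Spo11-Cre (0.201% of genes called, 1 member with an unadjusted p under 0.05), in fl/del Spo11-Cre against wt/fl Spo11-Cre (0.0357% called, 1 member) or in fl/del Spo11-Cre against fl/del (0.241% called, 0 members). *Tubb6* was the member with an unadjusted p under 0.05 between both Cre groups. It was 738 to 944 CPM in fl/del Spo11-Cre, with a median of 909, all but replicate 2 above the 5 wt/fl Spo11-Cre libraries, with a log2 fold change of 0.21 (SE 0.08, adjusted p = 0.702). The 6 pairs of the Spo11-Cre background share their groups, and wt/fl is the control in 3 of the 6.

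Whether the change with Spo11-Cre differed between wt/fl and fl/del oocytes was tested as an interaction. *Tubb6* had the largest interaction term of the expressed members, a log2 value of 0.35 (SE 0.12, adjusted p = 0.274), and *Tubb3* had 0.24 (SE 0.14, adjusted p = 0.585). No member was called by edgeR or DESeq2, beside 0.103% of all genes, and 1 had an unadjusted p under 0.05. With Spo11-Cre the *Tubb3* log2 fold change was -0.35 in wt/fl and -0.12 in fl/del (SE 0.10, edgeR adjusted p = 0.842). These values were not shown to differ between the genotypes.

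*Tubb2b*, a minor isotype in all groups, had the largest difference of the 6 expressed isotypes when both floxed alleles were removed by Gdf9-Cre or Zp3-Cre. It was 29.2 and 32.2 CPM in fl/fl Gdf9-Cre and 39.5 and 35.8 CPM in fl/fl Zp3-Cre. The wt/fl libraries had 14.5, 16.6, 13.9 and 18.1 CPM, and those of fl/del Spo11-Cre 17.9, 13.1, 14.6 and 14.1 CPM. All 4 fl/fl libraries lay above all 17 others, whose highest level was 20.3 CPM, which held for 0.857% of all genes. Groups without overlap were seen in 6.14% of genes for fl/fl against wt/fl and in 6.35% for fl/fl against fl/del Spo11-Cre.

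Against wt/fl the log2 fold change of *Tubb2b* was 1.02 (SE 0.19, edgeR adjusted p = 3.95e-04), or 2.03-fold with a 95% interval of 1.56 to 2.63. Compared with fl/del Spo11-Cre, *Tubb2b* differed by 1.10 on the log2 scale (SE 0.19, adjusted p = 1.00e-04). The exact permutation test of CPM gave p = 0.0286 in both, the smallest that 4 against 4 libraries allow. The call held under all 16 alternatives in each comparison, with adjusted p up to 0.00449 against wt/fl. In raw counts the fl/fl libraries had 293 to 314 *Tubb2b* counts and the others 135 to 318.

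Because *Tubb2b* shares stretches with *Tubb2a* and the fl/fl libraries were among the shallower ones, both were set beside it. *Tubb2a*, by far the more abundant gene of the pair, was 777 and 551 CPM in fl/fl Gdf9-Cre and 560.2 and 743 CPM in fl/fl Zp3-Cre, within the 557 to 810 CPM of the other libraries except for the 551. *Tubb2b* counts were 3.76 to 7.05% of *Tubb2a* counts in fl/fl and 1.81 to 3.19% in the 17 others. Within fl/fl the order of *Tubb2b* levels was the reverse of the order of library totals, and all 4 totals lay below those of the other groups except fl/del replicate 3, so depth moved with the result and its part was not tested. The shallowest library of the series, fl/del replicate 3, had 18.7 CPM of *Tubb2b*, in a group that ran from 15.2 to 20.3 CPM. In the second count table, made with *Kif11* counted over its exon 22 alone, which held about 1 count for each 1.94 of the all-exon table, *Tubb2b* was 27.6 to 38.1 CPM in fl/fl and 11.9 to 21.98 CPM elsewhere.

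**Figure D3:**
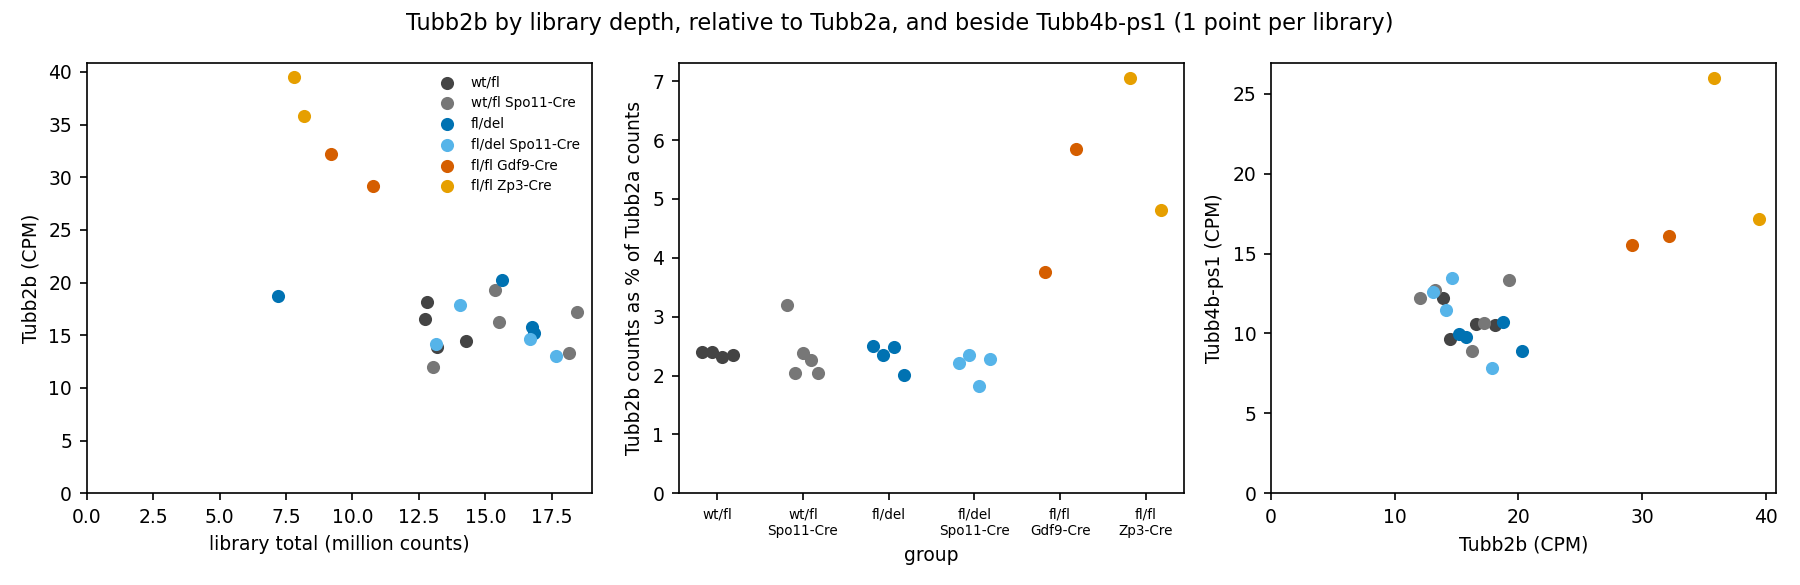
*Tubb2b* level against library total (left, CPM against total counts), *Tubb2b* counts as percent of *Tubb2a* counts by group (middle) and *Tubb4b-ps1* against *Tubb2b* level (right, CPM), with 1 point per library. The 4 fl/fl libraries lie above the 17 others in every panel, and the part of depth was not tested.

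The processed pseudogene *Tubb4b-ps1* was, of the members and 3 annotated beta tubulin pseudogenes, the other with all 4 fl/fl libraries above the 17 others, at 15.5 to 26.0 against 7.82 to 13.5 CPM. Its log2 fold change against wt/fl, 0.70 (SE 0.23), did not pass (adjusted p = 0.0951). *Tubb4b* itself, with which it shares sequence, had -0.19 (SE 0.10, adjusted p = 0.358) and overlapped with the others. *Tubb4b-ps2* and *Tubb2a-ps2* reached at most 3.53 and 2.37 CPM in any library.

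*Tubb6* was lower in fl/fl than in wt/fl, though less firmly. It was 753 and 730.2 CPM with Gdf9-Cre and 715 and 775 CPM with Zp3-Cre, all below wt/fl replicates 2 to 4, while wt/fl replicate 1 (755 CPM) lay among them. The exact permutation test of the CPM gave p = 0.0571. The log2 fold change was -0.35 (SE 0.10, adjusted p = 0.0319), and with *Tubb2b* it made 2 of 7 members called, beside 2.79% of 23225 genes, 1.02% higher and 1.77% lower. The fit, on library sizes rescaled across genes (TMM), thus gave 0.782-fold, where the ratio of the mean CPM was 0.831. The call was lost when other groups were left out of the fit (adjusted p = 0.198), with libraries summed by name prefix (adjusted p = 0.167) and without any 1 of wt/fl replicates 2 and 4, both Gdf9-Cre libraries and Zp3-Cre replicate 1 (adjusted p = 0.0570 to 0.235). Against fl/del Spo11-Cre the value was -0.32 (SE 0.10, adjusted p = 0.0659), which passed in DESeq2 (adjusted p = 0.0266), without the filter (0.0483) and without fl/del Spo11-Cre replicate 2 (0.0371) or Zp3-Cre replicate 2 (0.0204).

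*Tubb3* was higher in fl/fl than in fl/del Spo11-Cre. Its level was 242 and 217 CPM with Gdf9-Cre and 286 and 261 CPM with Zp3-Cre, all above the 149.5 to 194 CPM of fl/del Spo11-Cre. The fit gave a log2 fold change of 0.44 (SE 0.11, adjusted p = 0.0150), and with *Tubb2b* it made 2 of 7 members called, both higher, beside 2.9% of all genes called and 1.21% called higher. The call was lost when other groups were left out of the fit (adjusted p = 0.0642), with libraries summed by name prefix (adjusted p = 0.103) and without fl/del Spo11-Cre replicate 2 or 3 or Gdf9-Cre replicate 1 (adjusted p = 0.0524 to 0.0936). Against wt/fl the value for *Tubb3* was 0.17 (SE 0.11, adjusted p = 0.503), and the library ranges overlapped. Both fl/fl comparisons use the same fl/fl libraries.

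**Figure D4:**
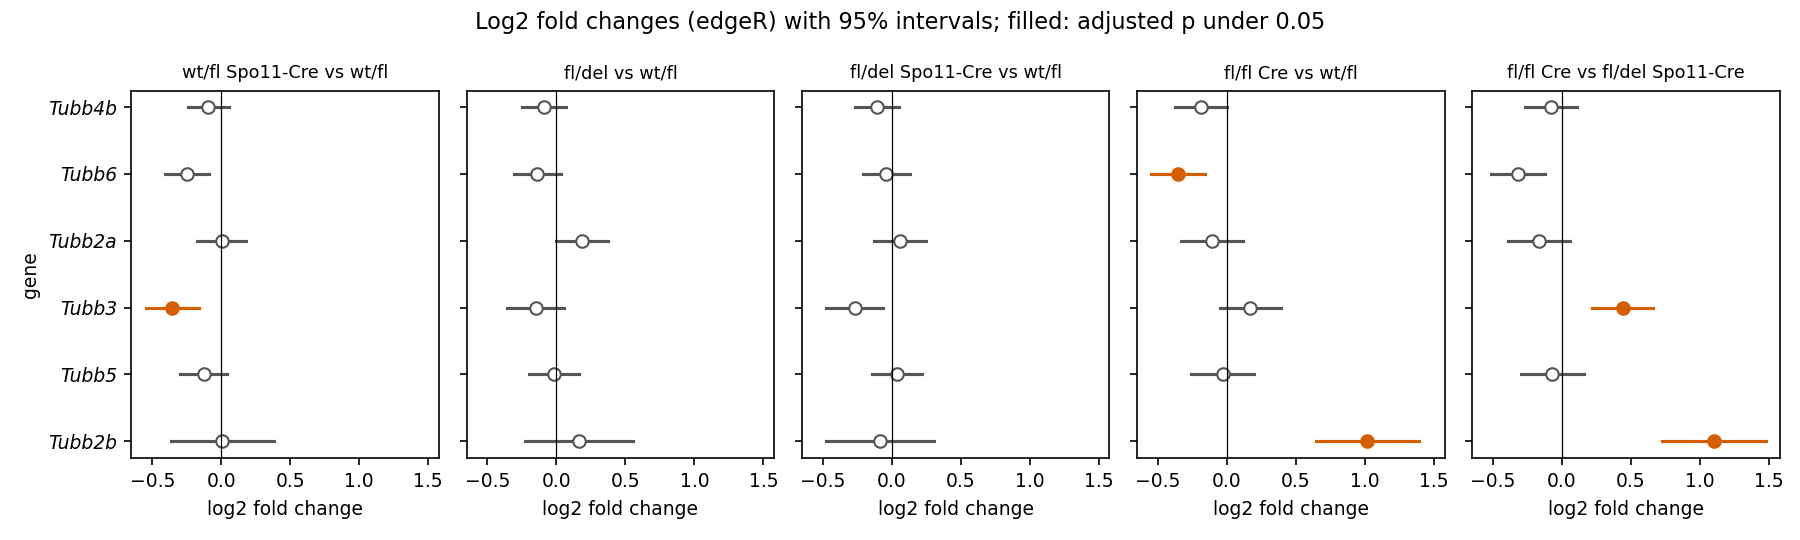
Log2 fold change (x axes) of the 6 expressed isotypes (y axis) in 5 comparisons, from edgeR fits across all genes, with 95% intervals as lines and filled points for an adjusted p under 0.05. Called points are *Tubb3* in wt/fl Spo11-Cre against wt/fl, *Tubb2b* and *Tubb6* in fl/fl against wt/fl, and *Tubb2b* and *Tubb3* in fl/fl against fl/del Spo11-Cre.

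Between the drivers themselves no isotype was called. In fl/fl Gdf9-Cre against fl/fl Zp3-Cre 0 of 7 members passed in edgeR or DESeq2 and 0 had an unadjusted p under 0.05, beside 0.891% of all genes called. *Tubb2b* and *Tubb3* had log2 fold changes of -0.26 (SE 0.27) and -0.22 (SE 0.16), with both Gdf9-Cre libraries below both Zp3-Cre libraries, a separation seen in 27.7% of all genes. Within the Gdf9-Cre pair *Tubb5* was 253 and 154 CPM in replicates 1 and 2, the widest gap between libraries of a group for this gene. The summed granulosa and cumulus markers were 115 and 84.7 CPM in these libraries. Among groups, fl/fl Gdf9-Cre had the highest mean *Inha* (2.70 CPM), *Cyp11a1* (1.53), *Hsd17b1* (1.30), *Gja1* (1.02), *Has2* (0.653), *Amhr2* (0.651) and *Amh* (0.558). It did not for *Cyp19a1*, *Nr5a2*, *Kitl*, *Fshr*, *Fst*, *Inhba* and *Inhbb*, and *Foxl2* was at 0 throughout. For *Inha*, *Hsd17b1*, *Gja1*, *Has2*, *Amhr2* and *Amh* the fl/fl Gdf9-Cre mean came from 1 of its 2 libraries, with the other at 0. The highest library was at 5.39 CPM for *Inha*, 2.60 for *Hsd17b1* and 2.04 for *Gja1*. The part of these markers was not tested.

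Genes that fold tubulin or handle its transcripts were then counted in the same fits. Tubulin folding was represented by 20 genes of the CCT chaperonin, prefoldin and tubulin cofactors, all tested. In wt/fl Spo11-Cre against wt/fl 1 rose, the prefoldin subunit *Pfdn1* (log2 fold change 0.33, adjusted p = 0.0341), and none fell, beside 2.19% of all genes called, with a list median of 0.12 beside 0.03 over all genes. In fl/fl against wt/fl the cofactor *Tbca*, which holds folded beta tubulin, rose (0.65, adjusted p = 7.53e-04), and the CCT subunits *Cct5* (-0.40, adjusted p = 0.00325) and *Cct8* (-0.32, adjusted p = 0.0480) fell, beside 2.79% of all genes called. *Tbca* and *Cct5* passed with the same signs against fl/del Spo11-Cre (0.51 and -0.42, adjusted p = 0.0119 and 0.00192), beside 2.9% of all genes. The other 6 pairs and the interaction had no called folding gene.

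The 3 autoregulation genes, *Ttc5*, which binds the nascent tubulin motif, and its partners *Scaper* and *Cnot11*, were called in no comparison. *Ttc5* came closest, with 15.9 ± 3.65 CPM (SD, n = 4) in fl/fl and 25.2 ± 10.2 CPM (SD, n = 4) in fl/del Spo11-Cre, a log2 fold change of -0.74 (SE 0.23, adjusted p = 0.0601). Of 16 genes that add or remove tail modifications 15 were tested in both fits, and 1 was called, the polyglutamylase *Ttll5*, lower in fl/fl than in wt/fl (-0.55, adjusted p = 0.0404), where 1.77% of all genes were called lower.

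Of 12 other tubulin genes, 11 were tested in the 17-library fit and 12 in the 21-library fit, and 3 were called in any comparison. *Tubg2*, a gamma tubulin, was lower in wt/fl Spo11-Cre than in wt/fl (-0.46, adjusted p = 0.0100), beside 2.19% of all genes called. *Tuba3b*, an alpha tubulin with near-identical copies, was higher in fl/del Spo11-Cre than in fl/del (1.03, adjusted p = 0.00333, beside 0.241% of genes) and also in the interaction (1.36, adjusted p = 0.0197, beside 0.103%). *Tuba1c*, another alpha tubulin, was higher in fl/fl than in fl/del Spo11-Cre (0.52, adjusted p = 0.0287), beside 2.9% of all genes.

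The genes whose levels ran most closely with the leading isotypes over the 17 Spo11-Cre background libraries were not other tubulins. Among 8525 genes, *Tubb4b* ran closest with *1810043G02Rik* (Pearson r = 0.887 of log2(CPM + 1)), *Ezh1* (0.840) and *Reep2* (0.832), and *Tubb6* with *Gltp* (0.874), *Fam83g* (0.869) and *Fbxo31* (0.869). Between members, *Tubb4b* had r = 0.590 with *Tubb6*, 0.566 with *Tubb3* and 0.267 with *Tubb2a*. These coefficients describe libraries that share genotype, depth and in part the mouse, and the largest of many are high by selection.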

How the data were processed

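RNA of 3 oocytes per library was amplified with SMART-seq v4 and sequenced as 150 bp paired reads. After trimming (fastp) and alignment to GRCm38 (HISAT2 2.2.1), the authors deposited whole-number counts of uniquely mapped reads per Ensembl gene from featureCounts 2.0.3, without normalization. The deposited TPM were computed by the authors from these counts by an unstated method, and were used for exon lengths and isotype shares. Symbols were matched for 54079 of 54232 identifiers through GENCODE M21, and the members and gene lists were chosen with earlier results of these data known. CPM are counts scaled to a library total of 1000000, with no pseudocount. The edgeR fold changes use TMM library sizes and can differ from ratios of CPM.

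Groups followed the labels. edgeR 4.0.16 in R 4.3.3 (TMM, glmQLFit, glmQLFTest) was fitted to genes with a count in at least 3 libraries, once to the 17 libraries of the Spo11-Cre background and once to all 21, with Benjamini-Hochberg adjustment over all genes and a threshold of 0.05. The 95% intervals are normal intervals from the standard error. The fits were tested on simulated data. DESeq2 1.42.0, other normalization, filters, library sets and count tables, a replicate block, summing of libraries whose names begin alike and leaving out each library were alternatives. Single values were compared by exact permutation tests (scipy 1.17.1). For between-gene shares, the merged exon length was recovered from the ratio of deposited counts to TPM, which matched GENCODE M21 within 0.1% for 7370 of 7832 well-counted genes. The design had left the annotation open, and the GENCODE lengths were added as an alternative after the data were seen. Named genes were the 8 members, *Kif11*, the annotated beta tubulin pseudogenes, list genes with an adjusted p under 0.05 (at most 4 per list and comparison), the autoregulation list, and the 3 genes with the highest correlation (mean count of at least 100) with each of the 2 leading isotypes. Counts and TPM made with *Kif11* restricted to exon 1, and the TPM made with exon 22, were not used here.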

Additional observations from a re-analysis of the deposited data

Results flagged for a closer look

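In fl/del Spo11-Cre, replicate 3 stood apart with the highest *Tubb5* level, 225 CPM, while the other 3 libraries lay between 185.8 and 187 CPM. In fl/del, replicate 1 stood apart with the highest *Tubb6* level, 867 CPM, while the other 3 lay between 778 and 789.8 CPM. Both were found by Dixon's criterion among 52 sets of values, of which chance alone flags about 1 in 20, and neither gene was called in a comparison of these groups.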

How the results depend on the processing

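In wt/fl Spo11-Cre against wt/fl, 1 member was called, and the count was 0 with filterByExpr, with all 21 libraries in the fit and with libraries summed by name prefix, 2 with DESeq2, and 0 to 1 with a library left out. In fl/fl against wt/fl the count of 2 became 1 with only the compared groups and with summed libraries, and 1 to 2 with a library left out. In fl/fl against fl/del Spo11-Cre the count of 2 became 1 with only the compared groups, with summed libraries and under the replicate block. It became 3, with *Tubb6* added, without the filter and with DESeq2, and 1 to 3 with a library left out. The lost calls were those of *Tubb3* and *Tubb6*, the cause was not tested, and *Tubb2b* kept its call and direction in 16 of 16 alternatives of each fl/fl comparison, with log2 fold changes of 0.93 to 1.21. The other 7 comparisons called 0 members in every alternative run. The *Tubb4b* share difference of fl/fl ran from -0.96 to 0.32 percentage points with a library left out, reversing to 0.32 without wt/fl replicate 1 and to 0.13 without fl/fl Gdf9-Cre replicate 1. The share differences of the other 3 groups kept their direction and did not pass in any alternative, but moved with a library left out, to 0.13 to 1.72 points for wt/fl Spo11-Cre, -2.03 to -0.75 for fl/del and -1.996 to -0.717 for fl/del Spo11-Cre.

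Replicate numbers did not pair the libraries, since same-numbered libraries of different groups deviated with correlations of -0.079 to 0.096 and 6 of 16 libraries correlated best with their own number. Under the block the *Tubb3* log2 fold change in fl/fl against fl/del Spo11-Cre was 0.37 (edgeR adjusted p = 0.0631); it changed no other member call, while calls over all genes in fl/del against wt/fl rose from 5 to 96.

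Depth limits *Tubb1* and *Tubb4a*, for which a library with 0 counts allows a level of up to 0.163 to 0.416 CPM, depending on its total, if counts are independent. Groups of 2 libraries rest on the spread pooled over all 21. Where a library was left out of such a group, the lone library was assumed to vary like the others.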
